A study of Danio rerio with 12 samples.

Results

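The genes described are the TGF-beta ligands tgfb1a, tgfb1b, tgfb2 and tgfb3, the type 2 receptors tgfbr2a and tgfbr2b, and the latent TGF-beta binding proteins ltbp1 and ltbp3, in cardiomyocytes sorted from zebrafish embryos at 20 hours after fertilization (hpf). All 8 genes were found, among 21570 genes listed for the hand2 loss-of-function experiment and 21119 listed for the hand2 gain-of-function experiment. Of these, 7 were found by their Ensembl gene name and ltbp3 by the UniProt gene name that the tables pair with ENSDARG00000035682. The loss-of-function experiment compared 3 libraries of hand2 FLD-/- embryos with 3 libraries of hand2 FLD+/? siblings, which are WT or heterozygous. hand2 FLD-/- embryos carry on both chromosomes an allele that the authors describe as a full-locus deletion of hand2 and as null. The gain-of-function experiment compared 3 libraries of hand2 overexpressing (OE) embryos, in which Tg(myl7:hand2-p2a-EGFP) drives hand2 from the myl7 promoter in the myocardium, with 3 libraries of WT siblings. Cells were sorted by a fluorescent reporter under the same myl7 promoter, whose own gene encodes a myosin light chain of the heart. How many embryos went into a library is not given in the sources used here.

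TGF-beta ligands are secreted in a latent form, in which the cleaved propeptide stays wrapped around the growth factor. A latent TGF-beta binding protein ties this complex to the extracellular matrix, where integrins, proteases and matrix proteins can release the ligand. The free ligand binds a type 2 receptor, which recruits and phosphorylates a type 1 receptor, and the pair activates the transcription factors Smad2 and Smad3. In zebrafish, ltbp3 is known as a marker of second heart field progenitors, the cells that add myocardium to the arterial pole of the heart tube. TGF-beta signals also take part in endocardial cushion formation in vertebrates.

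Each value below is a normalized read count, the authors' count of reads per gene scaled by 1 factor per library and rounded. A gene was called when limma, fitted to log2(normalized read count + 1) over all genes with a mean of at least 5, gave a Benjamini-Hochberg adjusted p of at most 0.05 and a fold change of at least 1.5. Log2 fold changes are differences of these logs, and for a gene with few reads the pseudocount of 1 makes them smaller. The 2 experiments were normalized separately and each was tested within its own table. The sources call the 3 libraries of a group biologically independent.

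The level of hand2 itself, as a check of the labels, was low in the mutants. hand2 had 149, 427 and 45 normalized reads in hand2 FLD-/- libraries, against 2228, 2336 and 2380 in hand2 FLD+/? libraries. hand2 FLD-/- replicate 2, with 427 reads, stood apart from the other mutant libraries towards the siblings, and did so as well for dcn, thbs1b and twist1b below. Without it the log2 fold change of ltbp3 was −1.15, against −1.12 with all libraries, that of dcn −3.50 against −3.16, and that of thbs1b −2.80 against −2.51, and all 3 stayed called. In hand2 OE libraries hand2 had 2159, 1939 and 2102, against 1671, 1667 and 1611 in WT libraries, and these counts do not separate the transgene from the gene itself. There hand2 passed the adjusted p and missed the fold threshold, so that it was not called (log2 fold change 0.32, adjusted p = 0.00837 from limma). How far this fold change gives the strength of the overexpression was not tested. Cardiomyocyte markers were present in every library, with myl7 between 1627 and 1801 in hand2 FLD-/- libraries and between 1984 and 2025 in hand2 FLD+/? libraries. The 12 cardiomyocyte markers summed to 35502 to 38162 in hand2 FLD-/- libraries, against 52546 to 56361 in hand2 FLD+/? libraries, and 3 of them were called lower (myh6, myh7l and ttn.2). For 10 of the 12 the groups did not overlap and the mutants were lower, where 44.3% of all tested genes had groups that did not overlap in either direction. Among the uncalled markers, myh7 passed the adjusted p and missed the fold threshold (log2 fold change −0.48, adjusted p = 7.19e-07 from limma). Of 10 endothelial markers tested, 8 rose in hand2 FLD-/- cells, and the list summed to 6031 to 6367 in hand2 FLD-/- libraries, against 1705 to 2053 in hand2 FLD+/? libraries, with pecam1 at 7 reads or fewer in every library of this experiment. In the gain-of-function experiment 0 of 12 cardiomyocyte and 0 of 11 endothelial markers were called, and the endothelial list summed to 1122 to 1585 in hand2 OE libraries, against 1103 to 1387 in WT libraries. In bulk libraries such as these, fewer cells of a type and less RNA per cell cannot be told apart, and the part of these shifts in the results below was not tested. The ratios to cardiomyocyte markers given below do not test it either, since 3 of these markers were themselves called lower in hand2 FLD-/- cells. Some abundant genes also varied little between replicates. In WT libraries tnnt2a had 2133, 2147 and 2137 reads and nkx2.5 had 1803, 1792 and 1798, closer together than random counting of reads usually gives. Whether counts at this level keep in proportion to RNA was not tested. This limits the fold changes of such genes, hand2 included, and the ratios to myl7. Normalized totals lay between 6728865 and 6965321 in the loss-of-function libraries and between 5322231 and 5425823 in the gain-of-function libraries, from an estimated 5000000 to 7660000 counted reads per library.

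The 2 latent binders changed in different experiments: ltbp3 fell 2.17-fold in hand2 FLD-/- cardiomyocytes and ltbp1 fell 2.95-fold in hand2 OE cardiomyocytes. Among the ligands, tgfb1a rose 1.56-fold in hand2 OE cardiomyocytes, and no type 2 receptor was called. In hand2 FLD-/- cells, then, 1 of 8 genes was called, where 18.5% of the 17877 genes tested were called (9.09% higher and 9.43% lower), so that the share of the 8 was not above that of all genes. In hand2 OE cells 2 of 7 tested genes were called, where 4.1% of 16510 were (2.53% higher and 1.57% lower). By adjusted p alone, 3 of 8 genes passed in hand2 FLD-/- cells, against 29.6% of all genes, and 2 of 7 in hand2 OE cells, against 6.63% of all genes. The groups did not overlap for 6 of 8 genes in the loss-of-function experiment, where 44.3% of all genes did not, and for 4 of 7 genes in the gain-of-function experiment, where 26.1% did not. The median log2 fold change of the tested genes was −0.05 in both experiments, beside 0.0032 over all genes in hand2 FLD-/- cells and 0.0015 in hand2 OE cells.

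**Figure D1:**
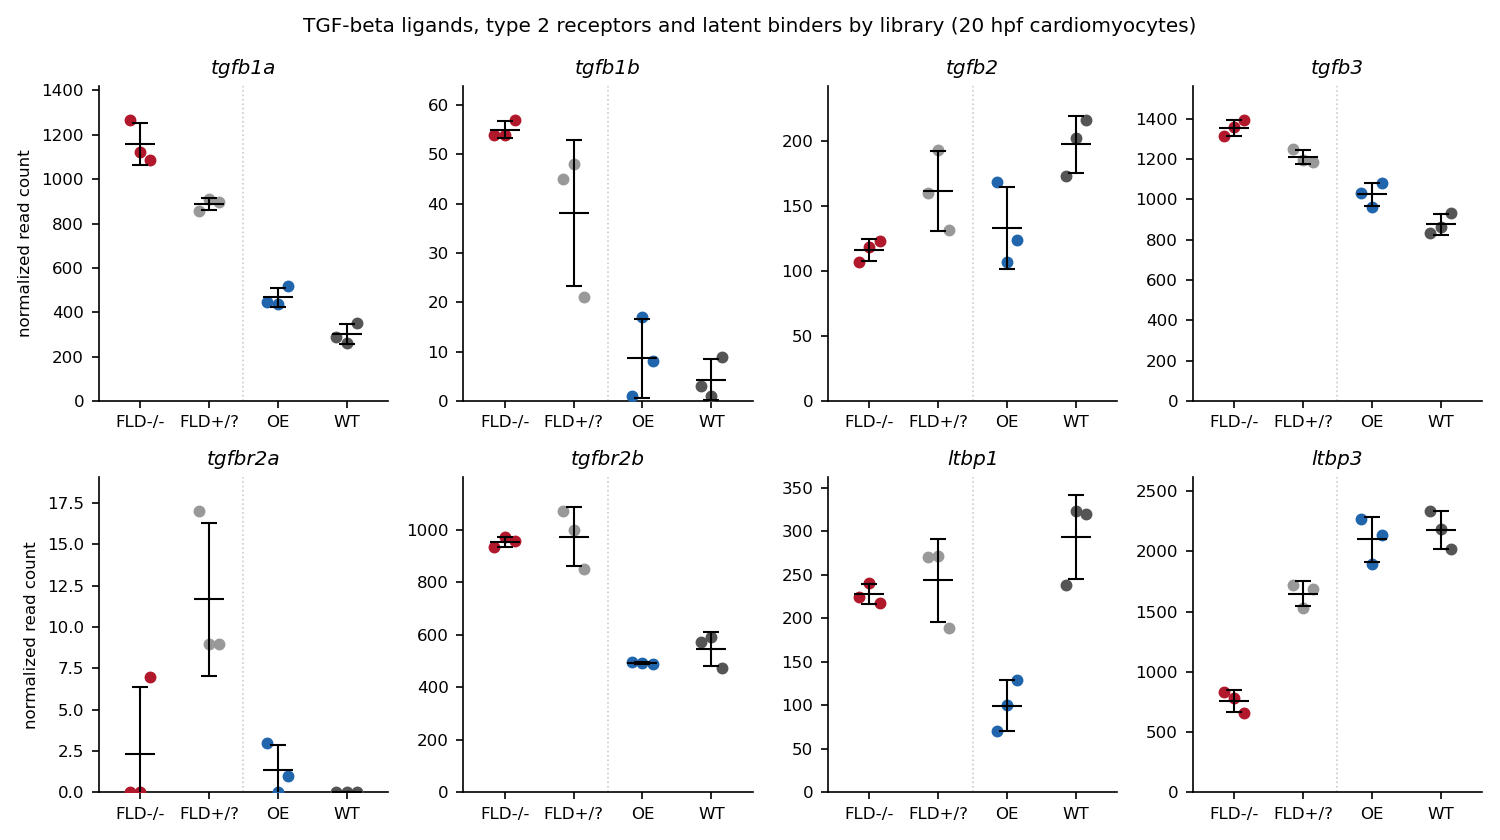
Normalized read count (vertical axis, from 0) of the 8 genes in each library of hand2 FLD-/-, hand2 FLD+/?, hand2 OE and WT cardiomyocytes, each point a library, with the group mean and SD as bars. ltbp3 lies between 660 and 836 in hand2 FLD-/- libraries, below all 9 others, and ltbp1 lies between 70 and 129 in hand2 OE libraries, below all 9 others.

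ltbp3 (ENSDARG00000035682, danRer11 chromosome 5 from 37517800 to 37585469, plus strand) encodes latent TGF-beta binding protein 3. It had 836, 781 and 660 normalized reads in hand2 FLD-/- libraries, against 1721, 1529 and 1690 in hand2 FLD+/? libraries. Every mutant library was well below every sibling library, and the lowest sibling had 1529 reads where the highest mutant had 836. The means were 759 ± 90.0 in hand2 FLD-/- cells and 1647 ± 103 in hand2 FLD+/? cells (SD, n = 3 each), and the log2 fold change was −1.12 (standard error 0.09, 95% interval −1.32 to −0.92, adjusted p = 2.58e-05 from limma). The gene was called with each of the 6 libraries left out in turn and under all 10 other settings tried. In the gain-of-function experiment ltbp3 had 2268, 1898 and 2134 reads in hand2 OE libraries, against 2332, 2183 and 2019 in WT libraries, and the groups overlapped. The log2 fold change there was −0.05 (95% interval −0.22 to 0.11, adjusted p = 0.746 from limma), so that a change of 1.5-fold in either direction lies outside the interval.

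Because the cardiomyocyte markers were also lower in hand2 FLD-/- cells, ltbp3 was set against them within each library, a ratio chosen after the values were seen. Relative to myl7, ltbp3 stood at 0.514, 0.465 and 0.366 in hand2 FLD-/- libraries, against 0.867, 0.755 and 0.835 in hand2 FLD+/? libraries, which is 1.83-fold lower. Relative to the 12 summed markers it was 1.47-fold lower, and the groups did not overlap (exact permutation test p = 0.1 for each ratio, the smallest that 3 against 3 libraries allow, two-sided). The fall of ltbp3 was thus smaller against the summed markers than in normalized reads, and in both ratios it remained lower in each mutant library. The sum does not weigh the markers alike. In hand2 FLD+/? libraries ttn.2 (mean 18152) and myh7 (mean 10664) had the most reads of the list, and ttn.2 was called lower in hand2 FLD-/- cells.

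ltbp1 (ENSDARG00000056922, chromosome 17 from 22956427 to 23116523, plus strand) encodes the latent TGF-beta binding protein 1. It had 70, 100 and 129 normalized reads in hand2 OE libraries, against 238, 323 and 320 in WT libraries. The highest OE library had 129 reads and the lowest WT library 238. The means were 99.7 ± 29.5 in hand2 OE cells and 294 ± 48.2 in WT cells (SD, n = 3 each). On the log2 scale the difference was −1.58 (standard error 0.25, 95% interval −2.15 to −1.01, adjusted p = 0.00873 from limma). The gene was called with each library left out in turn, with adjusted p up to 0.0395, and was not called when limma was fitted without a trend of variance on abundance, where the adjusted p was 0.0786. Relative to myl7 in the same library, ltbp1 was 2.94-fold lower in hand2 OE cells. In the loss-of-function experiment ltbp1 had 225, 240 and 218 reads in hand2 FLD-/- libraries, against 270, 272 and 189 in hand2 FLD+/? libraries. The third sibling library was the lowest of all 6, and the log2 fold change was −0.08 (95% interval −0.45 to 0.29, adjusted p = 0.757 from limma). Relative to myl7, ltbp1 was 1.1-fold higher in hand2 FLD-/- cells, and the groups overlapped. Relative to the summed cardiomyocyte markers, which were lower in the mutants, it was 1.38-fold higher. Those groups did not overlap (exact permutation test p = 0.1).

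The balance of reads between the 2 latent binders therefore differed between the groups of each experiment. The ratio of ltbp1 to ltbp3 reads was 0.269, 0.307 and 0.330 in hand2 FLD-/- libraries, against 0.157, 0.178 and 0.112 in hand2 FLD+/? libraries. It was 0.0309, 0.0527 and 0.0605 in hand2 OE libraries, against 0.102, 0.148 and 0.159 in WT libraries. The ratio was higher in every mutant library and lower in every OE library than in any of their siblings, which follows from the values of the 2 genes above. The exact permutation p was 0.1 in each experiment, the smallest that 3 against 3 allows, and is no separate test. These ratios were chosen after the values were seen, and they are of reads, not of transcripts, since gene lengths do not enter them.

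**Figure D2:**
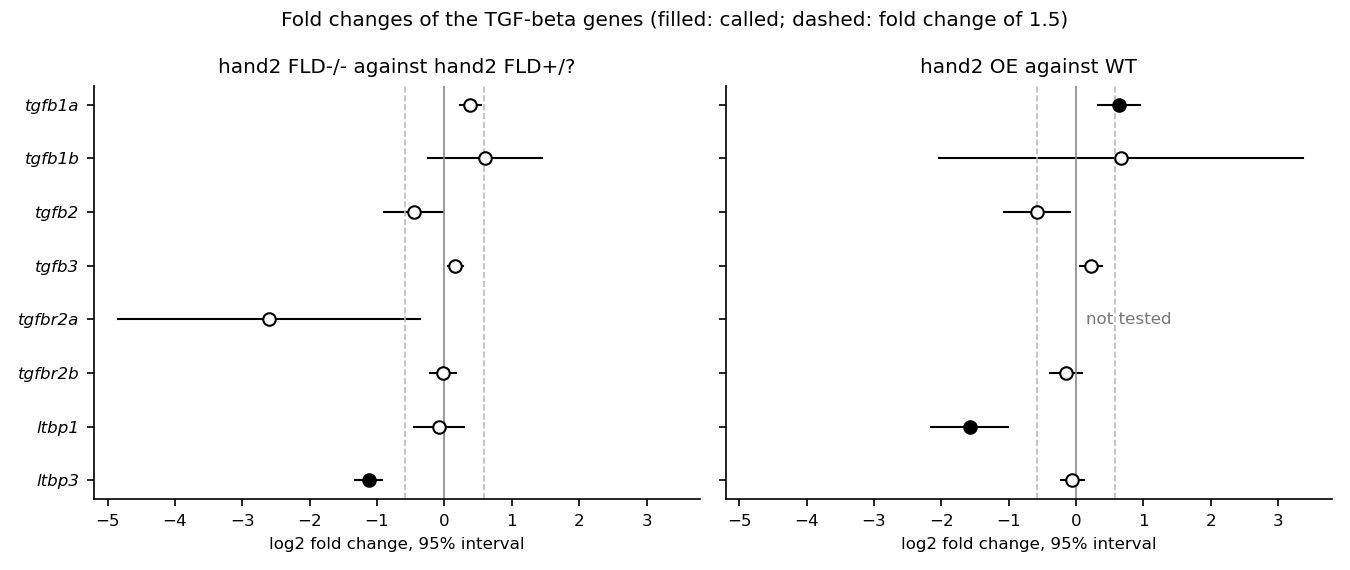
Log2 fold change (horizontal axis) of the 8 genes with its 95% interval from limma, in hand2 FLD-/- against hand2 FLD+/? cells (left) and hand2 OE against WT cells (right); filled points were called and dashed lines mark a 1.5-fold change. ltbp3 is filled on the left at −1.12, and ltbp1 at −1.58 and tgfb1a at 0.64 are filled on the right.

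Of the ligands, tgfb1a, tgfb2 and tgfb3 had groups that did not overlap in either experiment, and each lay on the same side in both: tgfb1a and tgfb3 were higher, and tgfb2 was lower, in every hand2 FLD-/- and every hand2 OE library than in any of their own siblings. Among these results only that of tgfb1a in hand2 OE cells was called. Of the 7 members tested in both experiments, 3 thus had groups that did not overlap and lay on the same side, as did 5.87% of the 15931 genes tested in both. The 2 experiments share no library.

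tgfb1a (ENSDARG00000041502, chromosome 15 from 2776506 to 2803313, minus strand) is 1 of the 2 zebrafish copies of the gene for TGF-beta 1. It had 445, 439 and 518 normalized reads in hand2 OE libraries, against 289, 262 and 350 in WT libraries. The lowest OE library, at 439 reads, was above the highest WT library, at 350. This gave a log2 fold change of 0.64 (standard error 0.14, 95% interval 0.33 to 0.95, adjusted p = 0.0274 from limma). This call was close to both thresholds: it held in 1 of the 6 fits with a library left out (without WT replicate 3), with log2 fold changes of 0.55 to 0.76 and adjusted p up to 0.102, and it was lost without the trend (adjusted p = 0.135). In the loss-of-function experiment tgfb1a had 1268, 1123 and 1087 reads in hand2 FLD-/- libraries, against 856, 909 and 898 in hand2 FLD+/? libraries. Each mutant library was above each sibling, and the means of 1159 ± 95.8 in hand2 FLD-/- cells and 888 ± 28.0 in hand2 FLD+/? cells (SD, n = 3 each) differed 1.31-fold. With a log2 fold change of 0.38 (95% interval 0.23 to 0.54, adjusted p = 0.00287 from limma) it passed the p threshold and not that of the fold. Relative to myl7, which was lower in the mutants, tgfb1a was 1.55-fold higher in hand2 FLD-/- cells, and it was also 1.55-fold higher in hand2 OE cells, where myl7 differed little. Relative to the 12 summed cardiomyocyte markers it was 1.92-fold higher in hand2 FLD-/- cells and 1.63-fold higher in hand2 OE cells.

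tgfb1b (ENSDARG00000034895, chromosome 21 from 21621042 to 21629828, plus strand), the other copy of the TGF-beta 1 gene, was read seldom. It had 54, 54 and 57 normalized reads in hand2 FLD-/- libraries, against 45, 48 and 21 in hand2 FLD+/? libraries. The mutant libraries were close together and the third sibling was far below its own group, so that the interval of the log2 fold change ran from −0.24 to 1.45 (adjusted p = 0.262 from limma). In the gain-of-function experiment it had 1, 17 and 8 reads in hand2 OE libraries, against 3, 1 and 9 in WT libraries, with overlapping groups (adjusted p = 0.812 from limma). At this depth no difference was detectable, and the interval there runs from −2.03 to 3.38 on the log2 scale.

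tgfb2 (ENSDARG00000027087, chromosome 16 from 2745006 to 2807527, minus strand) encodes TGF-beta 2, the ligand most closely tied to heart cushion formation in the mouse. It had 107, 118 and 123 normalized reads in hand2 FLD-/- libraries, against 160, 193 and 131 in hand2 FLD+/? libraries. The third sibling, at 131 reads, was close to the mutants. Over all 6 libraries the log2 fold change was −0.46 (95% interval −0.89 to −0.02, adjusted p = 0.106 from limma), and without that sibling library it was −0.60 and the gene was called (adjusted p = 0.0447). In the gain-of-function experiment tgfb2 had 168, 107 and 124 reads in hand2 OE libraries, against 173, 202 and 216 in WT libraries. The first OE library, at 168 reads, came within 5 reads of the lowest WT library. Here the log2 fold change was −0.58 (95% interval −1.08 to −0.09, adjusted p = 0.164 from limma), and leaving out any of the 6 libraries gave no call.

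tgfb3 (ENSDARG00000019367, chromosome 17 from 52059020 to 52091999, minus strand) encodes TGF-beta 3. It had 1316, 1357 and 1395 normalized reads in hand2 FLD-/- libraries, against 1251, 1196 and 1187 in hand2 FLD+/? libraries. All mutant libraries were above all siblings, by a small amount in relation to the level. The log2 fold change of 0.16 (95% interval 0.05 to 0.27, adjusted p = 0.0341 from limma) passed the p threshold and lay far below the fold threshold. In the gain-of-function experiment tgfb3 had 1031, 964 and 1080 reads in hand2 OE libraries, against 835, 861 and 934 in WT libraries. Its log2 fold change there was 0.23 (95% interval 0.06 to 0.39, adjusted p = 0.108 from limma). The replicate libraries of tgfb3 were close in both experiments, and both intervals end below a 1.5-fold change.

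The reads of tgfb1a were also set against those of tgfb2 within each library, again a ratio chosen after the values were seen. The ratio was 11.9, 9.52 and 8.84 in hand2 FLD-/- libraries, against 5.35, 4.71 and 6.86 in hand2 FLD+/? libraries. It was 2.649, 4.103 and 4.177 in hand2 OE libraries, against 1.671, 1.297 and 1.62 in WT libraries. That the groups are apart follows from the separation of both genes above, and the ratio carries no test of its own.

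**Figure D3:**
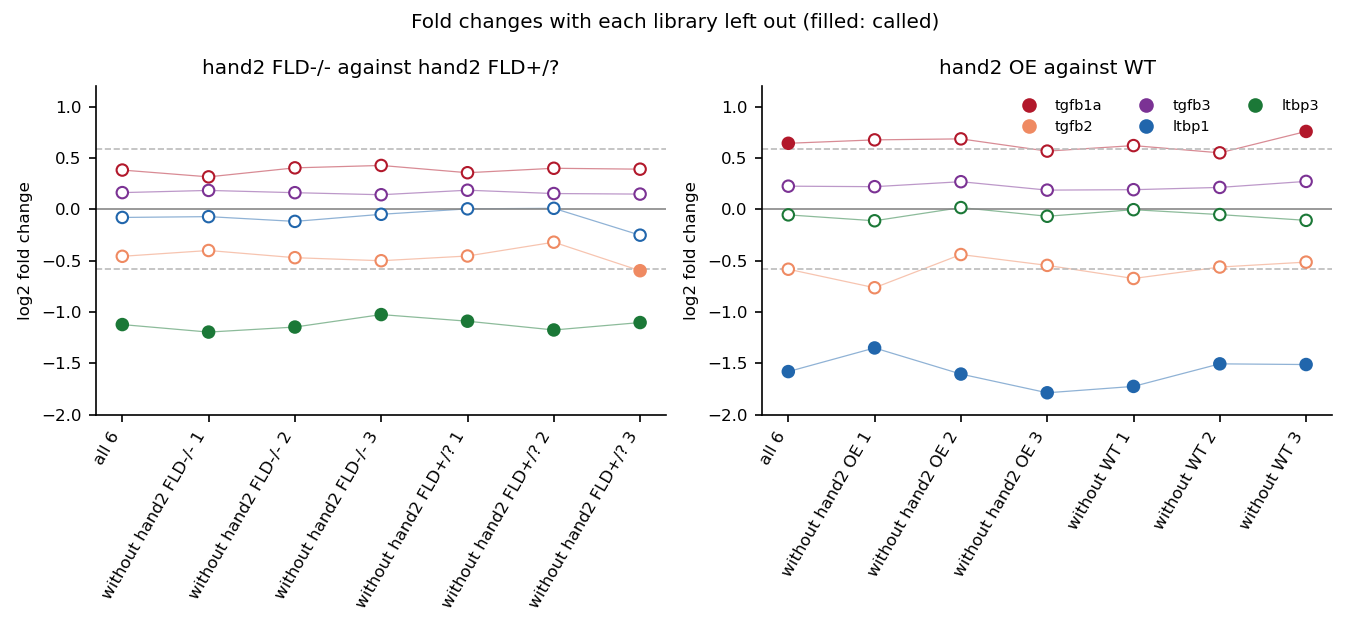
Log2 fold change (vertical axis) of tgfb1a, tgfb2, tgfb3, ltbp1 and ltbp3 with all 6 libraries and with each library left out in turn, for hand2 FLD-/- against hand2 FLD+/? (left) and hand2 OE against WT (right); filled points were called and dashed lines mark a 1.5-fold change. ltbp3 on the left and ltbp1 on the right stay filled throughout, while tgfb1a on the right is filled with all libraries and without WT replicate 3, and tgfb2 on the left without hand2 FLD+/? replicate 3.

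The type 2 receptors, the ligand-binding kinases that start the signal, were not called in either experiment. tgfbr2b (ENSDARG00000034541, chromosome 16 from 39505163 to 39605661, minus strand) had 933, 972 and 955 normalized reads in hand2 FLD-/- libraries, against 1070, 998 and 850 in hand2 FLD+/? libraries. The mutant values fell inside the range of the siblings, and the log2 fold change was −0.02 (95% interval −0.21 to 0.17, adjusted p = 0.867 from limma). It had 497, 493 and 487 reads in hand2 OE libraries, against 574, 593 and 472 in WT libraries, with a log2 fold change of −0.14 (95% interval −0.38 to 0.10, adjusted p = 0.503 from limma). In both experiments the interval excludes a change of 1.5-fold. tgfbr2b overlaps CR855318.1 on the other strand, which had 31 to 80 reads in the loss-of-function libraries and 6 to 28 in the gain-of-function libraries. The authors left out reads that fell on more than 1 gene, and the use of strand in counting is not stated. Whether reads in the overlap were left out or credited to either gene therefore cannot be told.

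tgfbr2a (ENSDARG00000059363, chromosome 19 from 917852 to 932264, plus strand), the second copy of the receptor gene, was near the limit of detection. It had 0, 0 and 7 normalized reads in hand2 FLD-/- libraries, against 17, 9 and 9 in hand2 FLD+/? libraries. The groups did not overlap, but the third mutant library, at 7 reads, was close to the lowest siblings. The adjusted p was 0.08 from limma, and without that mutant library the gene was called (adjusted p = 0.0235). In the gain-of-function experiment it had 3, 0 and 1 reads in hand2 OE libraries and 0 in each WT library, which is at or below the floor of 3 reads, and it was not tested.

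Placed side by side as reads per 1000000 of each library's normalized total, the levels of a gene in the 4 groups came in the same order for ltbp3 and tgfb2 and in other orders for the rest of the genes given here, and an order across experiments also carries the separate normalization and handling of the experiments. ltbp3 averaged 406 ± 28.9 per 1000000 in WT, 393 ± 33.4 in hand2 OE, 237 ± 15.3 in hand2 FLD+/? and 113 ± 13.5 in hand2 FLD-/- cells (SD, n = 3 each), and in this order only hand2 OE and WT overlapped. tgfb1a averaged 172 ± 14.5 per 1000000 in hand2 FLD-/-, 128 ± 3.83 in hand2 FLD+/?, 87.5 ± 8.36 in hand2 OE and 56.0 ± 8.85 in WT cells, and no neighbouring groups overlapped. The WT and hand2 FLD+/? siblings differed for ltbp3 by more than hand2 OE and WT did. ltbp1 averaged 54.7 ± 8.82 per 1000000 in WT, 35.1 ± 6.79 in hand2 FLD+/?, 33.8 ± 1.64 in hand2 FLD-/- and 18.7 ± 5.58 in hand2 OE cells, where hand2 FLD-/- and hand2 FLD+/? overlapped. For tgfb2 the order was WT at 36.7 ± 4.11, hand2 OE at 24.9 ± 5.76, hand2 FLD+/? at 23.2 ± 4.42 and hand2 FLD-/- at 17.2 ± 1.19 per 1000000, with hand2 OE and hand2 FLD+/? overlapping. tgfb3 varied least in proportion among the ligands, between 163 ± 10.4 per 1000000 in WT and 201 ± 5.62 in hand2 FLD-/- cells. tgfbr2b was at 141 ± 2.68 per 1000000 in hand2 FLD-/- and 140 ± 16.2 in hand2 FLD+/? cells, above 92.2 ± 0.72 in hand2 OE and 102 ± 11.5 in WT cells.

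The next step of the pathway, the type 1 receptors and co-receptors, had 1 of 6 genes called in hand2 FLD-/- cells and 2 of 6 in hand2 OE cells. The shares called over all tested genes were 18.5% and 4.1%. acvrl1, a type 1 receptor best known from endothelial cells, had 83, 88 and 82 normalized reads in hand2 FLD-/- libraries, against 240, 249 and 235 in hand2 FLD+/? libraries. It thus fell (log2 fold change −1.51, adjusted p = 9.93e-05 from limma) in libraries in which 8 of 10 endothelial markers rose. nfatc1, an endocardial gene and 1 of the 2 markers that were not called, had 147, 83 and 120 reads in hand2 FLD-/- libraries, against 282, 177 and 157 in hand2 FLD+/? libraries. The other uncalled marker, egfl7, was higher in the mutants (0.545, adjusted p = 0.00403 from limma) and missed the fold threshold. nfatc1 was also lower in every hand2 OE library than in any WT library (−0.25, not called), where acvrl1 went the other way. In hand2 OE libraries acvrl1 had 121, 174 and 183 reads, against 83, 72 and 70 in WT libraries, and it rose (1.06, adjusted p = 0.0395 from limma), a call that held in 1 of 6 fits with a library left out. tgfbr3, the co-receptor betaglycan, fell in hand2 OE cells (−1.07, adjusted p = 0.0222 from limma), a call that held in none of the 6 fits with a library left out, and it was at 0.08 in hand2 FLD-/- cells. With the replicate number as a block, neither gene was called in hand2 OE cells. The type 1 receptors tgfbr1a and tgfbr1b were not called in either experiment.

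Calls were also made among genes listed as anchors and activators of the latent complex. The list is broad and also takes in the proteoglycan genes dcn and bgnb and the furin genes furina and furinb. In hand2 FLD-/- cells 6 of 21 fell and 1 rose, with a median log2 fold change of −0.39, and in hand2 OE cells 5 of 17 rose and 0 fell, with a median of 0.55. Over all tested genes, 9.43% were called lower and 9.09% higher in hand2 FLD-/- cells, and 2.53% higher and 1.57% lower in hand2 OE cells. Of the 6 genes of this list that fell in hand2 FLD-/- cells, 4 rose in hand2 OE cells: dcn, emilin1a, itgb5 and thbs1b. The share of all genes that fell in hand2 FLD-/- and rose in hand2 OE cells is not given here. dcn, the proteoglycan decorin, which binds TGF-beta, had 196, 402 and 198 normalized reads in hand2 FLD-/- libraries, against 2211, 2294 and 2205 in hand2 FLD+/? libraries, and 1087, 1189 and 1079 in hand2 OE libraries, against 267, 269 and 326 in WT libraries. Its log2 fold changes were −3.16 and 1.96, and the groups were far apart in both experiments. emilin1a, whose mouse counterpart keeps TGF-beta in its precursor form, had log2 fold changes of −2.98 in hand2 FLD-/- cells and 1.43 in hand2 OE cells. thbs1b, a thrombospondin of the kind that activates latent TGF-beta in mammals, had −2.51 and 2.24, and the rise in hand2 OE cells was called in 4 of 6 fits with a library left out. The rise of itgb5 in hand2 OE cells (0.59, adjusted p = 0.0496 from limma) was at both thresholds and was lost in all 6 such fits.

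Outside this shared group, mmp9, a metalloproteinase that can release TGF-beta, rose in hand2 FLD-/- cells, where it had 647, 732 and 814 normalized reads, against 153, 214 and 185 in hand2 FLD+/? libraries. Its log2 fold change was 1.99 (adjusted p = 1.3e-05 from limma), while in hand2 OE cells it was −0.87 and not called. mmp2, another such protease, rose in hand2 OE cells (1.01, adjusted p = 0.0467 from limma), a call that held in 1 of 6 fits with a library left out. In the loss-of-function experiment mmp2 had 1053, 1198 and 1210 reads in hand2 FLD-/- libraries, against 813, 843 and 732 in hand2 FLD+/? libraries, where it passed the adjusted p and missed the fold threshold (0.54, adjusted p = 0.000876 from limma). Named after their values were seen, lrrc32 and the integrin chains itgav and itgb5 also fell in hand2 FLD-/- cells. lrrc32, which anchors the latent complex on cell surfaces in mammals, had 271, 229 and 253 reads in hand2 FLD-/- libraries, against 850, 860 and 849 in hand2 FLD+/? libraries, and like ltbp3 it differed little in hand2 OE cells (−0.08, adjusted p = 0.635 from limma). The count of 5 in hand2 OE cells was 2 to 5 with a library left out (2 without hand2 OE replicate 2 or 3) and 3 with the replicate number as a block. Of 6 neural crest markers tested, twist1a moved the same way as dcn, with 262, 390 and 302 reads in hand2 FLD-/- libraries, against 852, 934 and 959 in hand2 FLD+/? libraries, and 177, 395 and 232 in hand2 OE libraries, against 24, 49 and 102 in WT libraries. twist1b fell in hand2 FLD-/- cells as well, with 42, 128 and 5 reads, against 1001, 1084 and 1143 in hand2 FLD+/? libraries. In hand2 OE libraries twist1b had 417, 407 and 486 reads, against 349, 281 and 269 in WT libraries. It passed the adjusted p there and missed the fold threshold (0.55, adjusted p = 0.0496 from limma). The whole list summed to 664 to 844 in hand2 FLD-/- libraries, against 2308 to 2406 in hand2 FLD+/? libraries, but without these 2 genes its other 5 markers summed to 255 to 537 in hand2 FLD-/- libraries, against 304 to 455 in hand2 FLD+/? libraries, and the groups overlapped. In hand2 OE libraries the whole list summed to 739 to 1232, against 403 to 545 in WT libraries, and without the twist genes to 87 to 430 in hand2 OE libraries, against 73 to 174 in WT libraries. Of these other markers, foxd3 and sox10 were higher in every hand2 OE library than in any WT library and were not called, and dlx2a and tfap2a had overlapping groups. Of 9 epidermal markers, 3 fell (krt8, krt18a.1 and krtt1c19e) and 1 rose (cdh1) in hand2 FLD-/- cells, and 2 rose (krt8 and krt18a.1) in hand2 OE cells. The epidermal list summed to 4963 to 5451 in hand2 FLD-/- libraries, against 6813 to 9252 in hand2 FLD+/? libraries, and to 4730 to 7521 in hand2 OE libraries, against 3002 to 4113 in WT libraries. krt8 and krt18a.1 had the highest means of this list in each group. The epidermal markers not called in an experiment had overlapping groups there. Among them, krt4 had 575, 480 and 526 reads in hand2 FLD-/- libraries, against 303, 1469 and 433 in hand2 FLD+/? libraries. It had 220, 1735 and 810 in hand2 OE libraries, against 1008, 314 and 1040 in WT libraries. The part of such cells in the calls of dcn, emilin1a, thbs1b and itgb5 was not tested.

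**Figure D4:**
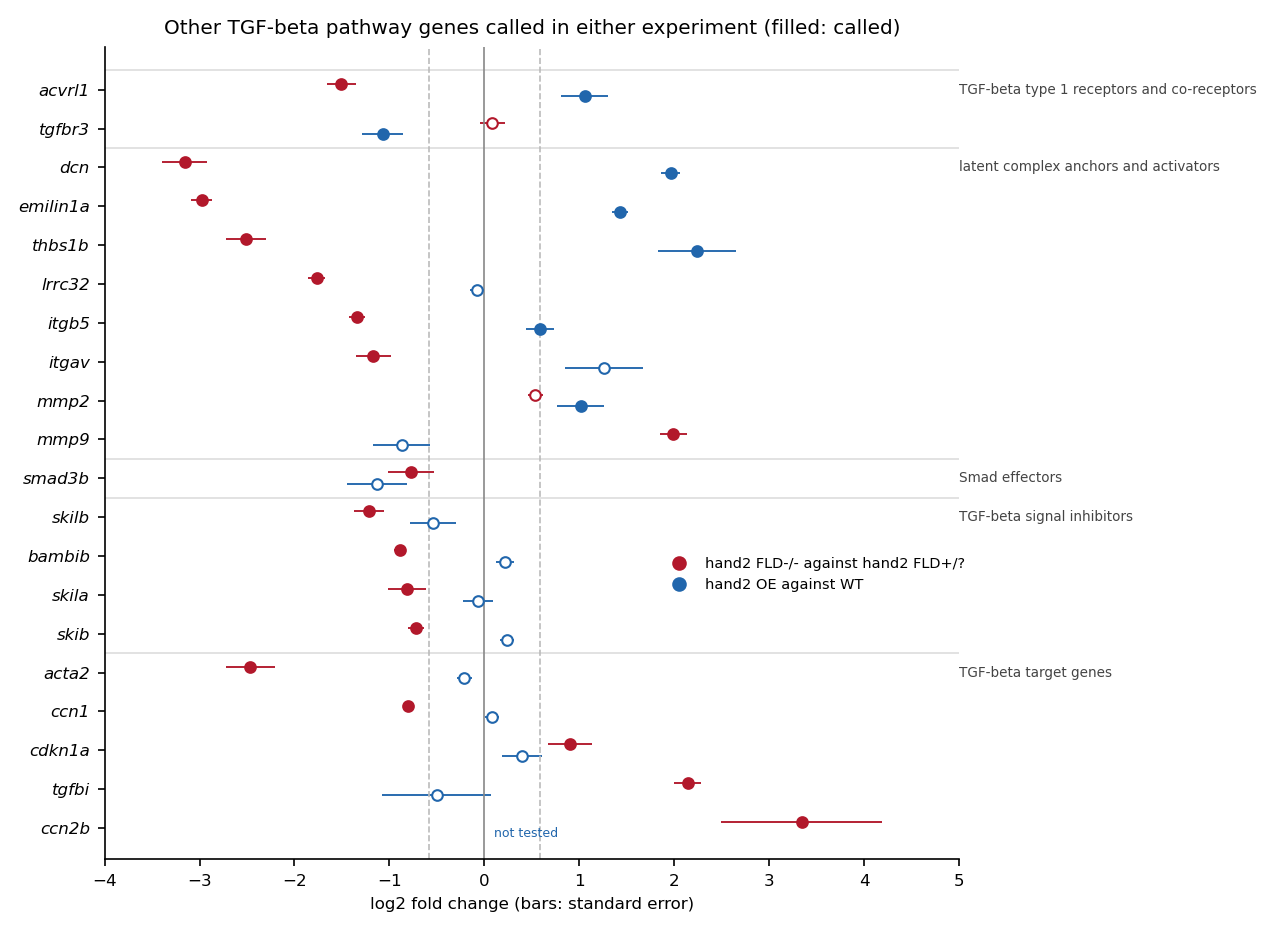
Log2 fold change with its standard error (horizontal axis) of the 20 other TGF-beta pathway genes called in at least 1 experiment, in hand2 FLD-/- against hand2 FLD+/? cells and hand2 OE against WT cells; filled points were called and dashed lines mark a 1.5-fold change. dcn, emilin1a, thbs1b, itgb5 and acvrl1 are filled below 0 in the first comparison and above 0 in the second.

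Inside the cell, the Smad effectors had 1 of 7 genes called in hand2 FLD-/- cells and 0 of 6 in hand2 OE cells by limma, where 2 had an unadjusted p below 0.05. Of all tested genes, 18.5% were called in hand2 FLD-/- cells and 4.1% in hand2 OE cells. smad3b, 1 of the 2 copies of the receptor-activated smad3, fell in hand2 FLD-/- cells (log2 fold change −0.77, adjusted p = 0.0373 from limma), and this call was lost with each library left out in turn and with the replicate number as a block. In hand2 OE cells smad3b had 62, 43 and 48 normalized reads, against 97, 151 and 94 in WT libraries, with groups that did not overlap and no call (−1.13, adjusted p = 0.0732 from limma). smad2, the other receptor-activated effector, had log2 fold changes of 0.02 in hand2 FLD-/- cells and −0.08 in hand2 OE cells. Of the inhibitors of the signal, 4 of 13 fell in hand2 FLD-/- cells, where 9.43% of all tested genes were called lower. These were skilb, skila and skib, which encode Ski family corepressors of the Smads, with −1.22, −0.81 and −0.72, and bambib, which encodes a receptor without a kinase, with −0.89. In hand2 OE cells 0 of 13 inhibitors were called by limma, where 3 had an unadjusted p below 0.05, and skib was at 0.24 there. bambia passed the adjusted p in both experiments and missed the fold threshold. It was lower in hand2 FLD-/- cells (−0.40, adjusted p = 0.000691 from limma) and higher in hand2 OE cells (0.31, adjusted p = 0.02). smurf1 did so in hand2 FLD-/- cells alone, where it was lower (−0.57, adjusted p = 0.00607 from limma). The call of skila was lost without hand2 FLD+/? replicate 1 (adjusted p = 0.0536 from limma) and without the trend.

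The genes listed as targets of TGF-beta in other tissues, several of which are also listed as inhibitors or are ligands described above, went both ways. In hand2 FLD-/- cells 3 of 20 rose and 4 fell, where 9.09% of all tested genes were called higher and 9.43% lower. tgfbi, a matrix protein named for its induction by TGF-beta, had 1823, 1702 and 1763 normalized reads in hand2 FLD-/- libraries, against 312, 486 and 419 in hand2 FLD+/? libraries, and rose (2.14). acta2, smooth muscle actin, had 45, 27 and 33 reads in hand2 FLD-/- libraries, against 186, 176 and 222 in hand2 FLD+/? libraries, and fell (−2.47). ccn2b, a connective tissue growth factor gene, rose at a low level, with 15, 48 and 27 in hand2 FLD-/- libraries, against 6, 2 and 0 in hand2 FLD+/? libraries, and the call was lost without hand2 FLD-/- replicate 2 or 3. The other such gene, ccn2a, had far more reads and was lower, with 1622, 1792 and 1665 in hand2 FLD-/- libraries, against 2282, 2331 and 2086 in hand2 FLD+/? libraries. It passed the adjusted p and missed the fold threshold (−0.40, adjusted p = 0.000699 from limma). smad7, an inhibitory Smad that the pathway itself induces, was not called, with −0.26. In hand2 OE cells 1 of 19 targets was called, where 4.1% of all tested genes were, and this target was tgfb1a itself.

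No activin and nodal type receptor was called. Of 12 second heart field genes, 3 were called in hand2 FLD-/- cells, hand2 itself among them, and 2 in hand2 OE cells. The shares over all tested genes were 18.5% in hand2 FLD-/- and 4.1% in hand2 OE cells. By limma 0 of 6 activin and nodal type receptors were called in hand2 FLD-/- cells and 0 of 6 in hand2 OE cells, where 2 had an unadjusted p below 0.05 in each experiment. In hand2 FLD-/- cells these 2, acvr1ba (−0.46, adjusted p = 0.00013 from limma) and acvr2aa (−0.39, adjusted p = 0.00317), also passed the adjusted p with groups that did not overlap, and missed the fold threshold. Among 12 second heart field genes, besides the deleted hand2 itself, isl1 fell and eya1 rose in hand2 FLD-/- cells (−0.83 and 1.73). In hand2 OE cells fgf10a and isl1 rose (2.28 and 1.52), and isl1 had 466, 521 and 462 normalized reads in hand2 OE libraries, against 124, 253 and 149 in WT libraries. The uncalled genes of the list did not share a direction in hand2 FLD-/- cells: fgf8a (0.50), tbx1 (0.30) and six1b (3.08) were higher and isl2a (−0.31) lower in every hand2 FLD-/- library than in any hand2 FLD+/? library. Of these, fgf8a, tbx1 and isl2a passed the adjusted p from limma (0.00191, 0.00507 and 0.0236) and missed the fold threshold. six1b had few reads, with 21, 18 and 0 in hand2 FLD+/? libraries (adjusted p = 0.0542 from limma). In hand2 OE cells jag2b was lower and passed the adjusted p alone (−0.47, adjusted p = 0.0229 from limma). ltbp3, a marker of the same progenitors, fell as isl1 did and as eya1 did not, and was at −0.05 in hand2 OE cells.

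The genes whose pattern was most like that of each member were taken as those with the highest Pearson r of log2(normalized read count + 1), centred within each experiment, over the 12 libraries and 10738 genes with a mean of at least 50. For ltbp3 these were lmna (0.986), col7a1l (0.985) and kif26ba (0.985), and for ltbp1 gse1 (0.947), thtpa (0.946) and ak1 (0.933). For tgfb1a they were si:ch211-161h7.4 (0.949), pold3 (0.944) and olfml2a (0.935), and for tgfb2 pex19, rsu1 and txn2 (0.932 to 0.934). For tgfb3 they were arl14ep, cfap36 and nelfcd (0.935 to 0.945), and for tgfbr2b sp3a, tmc6b and nnt (0.85 to 0.865). These values describe the libraries, which share the group differences and the scaling of each library, and carry no test.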

How the data were processed

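Messenger RNA of sorted cardiomyocytes at 20 hpf (about 1 ng of total RNA per library, SMART-Seq HT kit, single-end reads) was sequenced in 12 libraries of 2 experiments. Trimming was done by the authors with Trimmomatic 0.39, alignment to danRer11 (Ensembl annotation) with STAR 2.7.10a, and counting per gene with featureCounts 2.0.2, without reads that fell on more than 1 gene or place. Their differential expression tool was DESeq2 1.30.1. The deposited unit is a score: the authors divided the read counts of a library by 1 factor, set within the experiment, and rounded the quotients. Because these are not raw counts, no count model was used.

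Limma 3.58.1 in R 4.3.3 was run on log2(value + 1) with a trend in eBayes, and genes entered where their mean over an experiment reached 5. The thresholds were those of the study. Groups came from the deposited labels. Ratios were compared with an exact permutation test. The estimate of counted reads per library was checked on simulated data. The genes described, the wider lists and the tests were chosen with earlier results of these data known. From each wider list up to 4 called genes per experiment with the largest change are named. Outside this rule, lrrc32, itgav, itgb5, marker genes, uncalled genes and the ratios were named after their values were seen. Alternatives were other pseudocounts (0.5 and 5), filters (none, and a mean of 20), scalings, thresholds (no fold change, and 2), no trend, the replicate number as a block and each library left out. The reads carry no molecular identifiers.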

Additional observations from a re-analysis of the deposited data

How the results depend on the processing

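Of the 8 genes, the number called in hand2 FLD-/- cells was 1, and it was 3 with no fold change threshold (ltbp3, tgfb1a and tgfb3) and 1 to 2 with a library left out. It was 2 without hand2 FLD-/- replicate 3, where tgfbr2a was added, and without hand2 FLD+/? replicate 3, where tgfb2 was added. In hand2 OE cells the number was 2, and it was 0 without the trend, 1 at a fold change of 2, and 1 to 2 with a library left out, 1 without hand2 OE replicate 1, 2 or 3 or WT replicate 1 or 2. Among the fold changes 5 turned sign, all near 0 and not called. ltbp1 in hand2 FLD-/- cells was 0.0046 without hand2 FLD+/? replicate 1 and 0.0099 without replicate 2 (range −0.25 to 0.01). ltbp3 in hand2 OE cells was 0.017 without hand2 OE replicate 2 (range −0.11 to 0.02). tgfbr2b in hand2 FLD-/- cells was 0.0213 after rescaling to equal totals and 0.0495 without hand2 FLD+/? replicate 1 (range −0.12 to 0.05). The cause of these changes was not tested. The share of all tested genes called ran from 11.8% to 29.6% in the loss-of-function experiment and from 1.23% to 6.63% in the gain-of-function experiment.

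With the replicate number as a replicate block, the number of members called stayed at 1 in hand2 FLD-/- and 2 in hand2 OE cells, with adjusted p from limma of 0.000264 for ltbp3, 0.0116 for ltbp1 and 0.0331 for tgfb1a. The deviations of libraries of the same number correlated at 0.015 to 0.034 in the loss-of-function and −0.098 to −0.02 in the gain-of-function experiment. For libraries of different numbers the correlations were −0.026 to 0.003 and −0.041 to 0.075. With 3 libraries per group, these values cannot decide whether the numbers pair the samples. Depth limits tgfb1b and tgfbr2a, and 3 libraries per group limit every test of a single ratio to a p of 0.1.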
